A study of Homo sapiens with 6 samples.

Results

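Cytoglobin (CYGB), the globins neuroglobin (NGB) and myoglobin (MB), and the proteins that pass electrons to heme proteins of this kind (CYB5R3, CYB5A, CYB5B and POR) were followed in RNA-seq libraries of HCT116, a human colon cancer cell line. The 7 genes were taken from the deposited count table by their symbols, and they account for 7 of its 40173 genes and 49 of its 151453 transcripts that carry a gene. MOCK cells (labelled wild type) had received a control lentivirus, and CYGB cells (labelled CYGB overexpression) a lentivirus for constitutive expression of the CYGB coding region fused to a FLAG tag. Both were stable lines kept after puromycin selection and grown in serum over the same passage range, with 3 libraries per group described as biological replicates, and whether either is clonal was not stated. Whether the replicates came from separate transductions was not stated, so the p-values measure the spread between these libraries. Such cells are a model of forced expression in 1 colon cancer line, and the virus carries neither the native promoter nor the introns of CYGB.

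Globins bind oxygen and other gases through an iron-containing heme, and the iron must be returned to its reduced state before the next cycle. MB stores oxygen in muscle, NGB is the globin of neurons, and CYGB is best known from fibroblasts and hepatic stellate cells. A role of CYGB in removing nitric oxide and lipid peroxides has been described, whereas the study itself reported more lipid peroxidation in CYGB-overexpressing HCT116 cells. CYB5R3 takes electrons from NADH and hands them to the cytochrome b5 proteins, CYB5A in the endoplasmic reticulum and CYB5B in the outer mitochondrial membrane, and this route is an efficient reductant of CYGB in biochemical assays. POR takes electrons from NADPH and supplies the microsomal cytochromes P450, heme oxygenase and squalene epoxidase.

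Library totals ranged from 58138393 to 66035266 counts, of which 18.6 to 19.5% fell on transcripts without a gene and were left out. Epithelial markers made up 4128 to 4604 CPM (counts scaled to library size) in MOCK and 4200 to 4490 CPM in CYGB over 9 genes, with KRT8, KRT18, KRT19, EPCAM and CDH1 abundant and VIL1, CLDN4 and LGALS4 at or below 87 counts in any library. Summed levels of the other marker lists overlapped between the groups: fibroblast or stellate cell 52.3 to 59.2 against 56.1 to 63.1 CPM, blood cell 19.9 to 21.5 against 10.3 to 25.8 CPM, neuron 84.6 to 93.3 against 68.2 to 87.6 CPM and muscle 6.83 to 7.95 against 7.42 to 7.69 CPM. Most of these sums came from single genes, COL1A1 (2117 to 2823 counts per library) for fibroblasts, CD68 (500 to 1326) for blood, SYT1 (3354 to 4509) for neurons and DES (270 to 346) for muscle, while DCN, LUM, PTPRC, CD3E, MYH7 and STMN2 had at most 12 counts in any library.

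CYGB (ENSG00000161544, minus strand of chr17:76527356-76551175, GRCh38) is listed with 4 transcripts, of which CYGB-201 and CYGB-203 passed the filter on low counts. They are shown here because they share exon 2 and differ in exon 1, so a read over the junction tells them apart. Exon 1 of CYGB-201 carries the start codon, while CYGB-203 starts from another first exon further upstream. In the junction sequences, given on the coding strand, capitals mark the end of exon 1 and lower case the shared start of exon 2 (chr17:76531662-76531691).
CYGB-201 (exon 1 end, chr17:76537400-76537429): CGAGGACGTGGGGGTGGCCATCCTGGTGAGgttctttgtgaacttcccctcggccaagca
CYGB-203 (exon 1 end, chr17:76550862-76550881): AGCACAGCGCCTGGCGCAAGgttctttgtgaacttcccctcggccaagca

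CYGB was close to silent in MOCK cells and had the highest level per transcript length of the 7 genes in CYGB cells. Its gene-level counts were 10, 28 and 34 in MOCK replicates 1 to 3 and 34935, 27681 and 32333 in CYGB replicates 1 to 3, so the groups were far apart. In CPM these were 0.212, 0.53 and 0.661 against 691, 545 and 616. Transduced cells exceeded MOCK by a log2 fold change of 10.35 (SE 0.45, 95% interval 9.26 to 11.44), which is 1305-fold with an interval of 614 to 2774, and the adjusted p was 0.00226 in edgeR's quasi-likelihood test. In bulk RNA, a larger share of expressing cells and more RNA per cell cannot be told apart. CYGB took 0.0549 to 0.0697% of all counts with a gene in the CYGB libraries, and moved from rank 17810 to rank 201 of the genes ordered by mean TPM (transcript abundance, that is counts divided by transcript length and scaled to a common total). Counts from the virus and from the native gene cannot be told apart in a table of this kind. The TPM of CYGB used annotated lengths, 2158 bases for CYGB-201, while the virus carries only the coding region. Its level and rank per length in CYGB cells are therefore approximate. As far as counts came from the virus, with a coding region of 570 bases, both are understated.

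Nearly all of the CYGB counts in transduced cells were assigned to CYGB-201, the form with the complete coding region of 570 bases. CYGB-201 went from 4, 24 and 20 counts in MOCK to 34846, 27594 and 32281 in CYGB. CYGB-203, whose coding region of 375 bases lacks the first exon of CYGB-201, went from 6, 4 and 14 to 87, 87 and 50. Neither form overlapped between the groups, as was the case for 10.4% of all transcripts tested. CYGB-201 changed by a log2 of 10.95 (SE 0.82) with an unadjusted p of 1.7e-05 and an adjusted p of 0.066 in edgeR's quasi-likelihood test per transcript. CYGB-203 changed by a log2 of 3.20 (SE 0.61), with an unadjusted p of 0.00226 and an adjusted p of 0.43 in the same test. Both met the threshold of the study's methods, an unadjusted p of at most 0.01 with a ratio of at least 2 or at most 0.5, as did 1.02% of the 66609 transcripts tested, with 0.54% upward. Without MOCK replicate 1 the unadjusted p of CYGB-203 was 0.0123 in the same edgeR test, short of that threshold. The share of CYGB-201 in the gene's counts was 40, 85.7 and 58.8% in MOCK and 99.7, 99.7 and 99.8% in CYGB, and the MOCK shares rest on 10 to 34 counts. This difference of 38.2 percentage points had p = 0.1 in a two-sided exact permutation test, the smallest value that 3 against 3 libraries allow, and an adjusted p of 0.5 over the 5 genes compared. Of 150-base windows, 47.5% in CYGB-201 and 48.8% in CYGB-203 occur in no other transcript of the gene. These windows separate the forms for native RNA only in part. The virus carries only the coding region, and whether viral reads were assigned to CYGB-203 was not tested. CYGB-202 and CYGB-205 had at most 2 counts in any library.

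**Figure D1:**
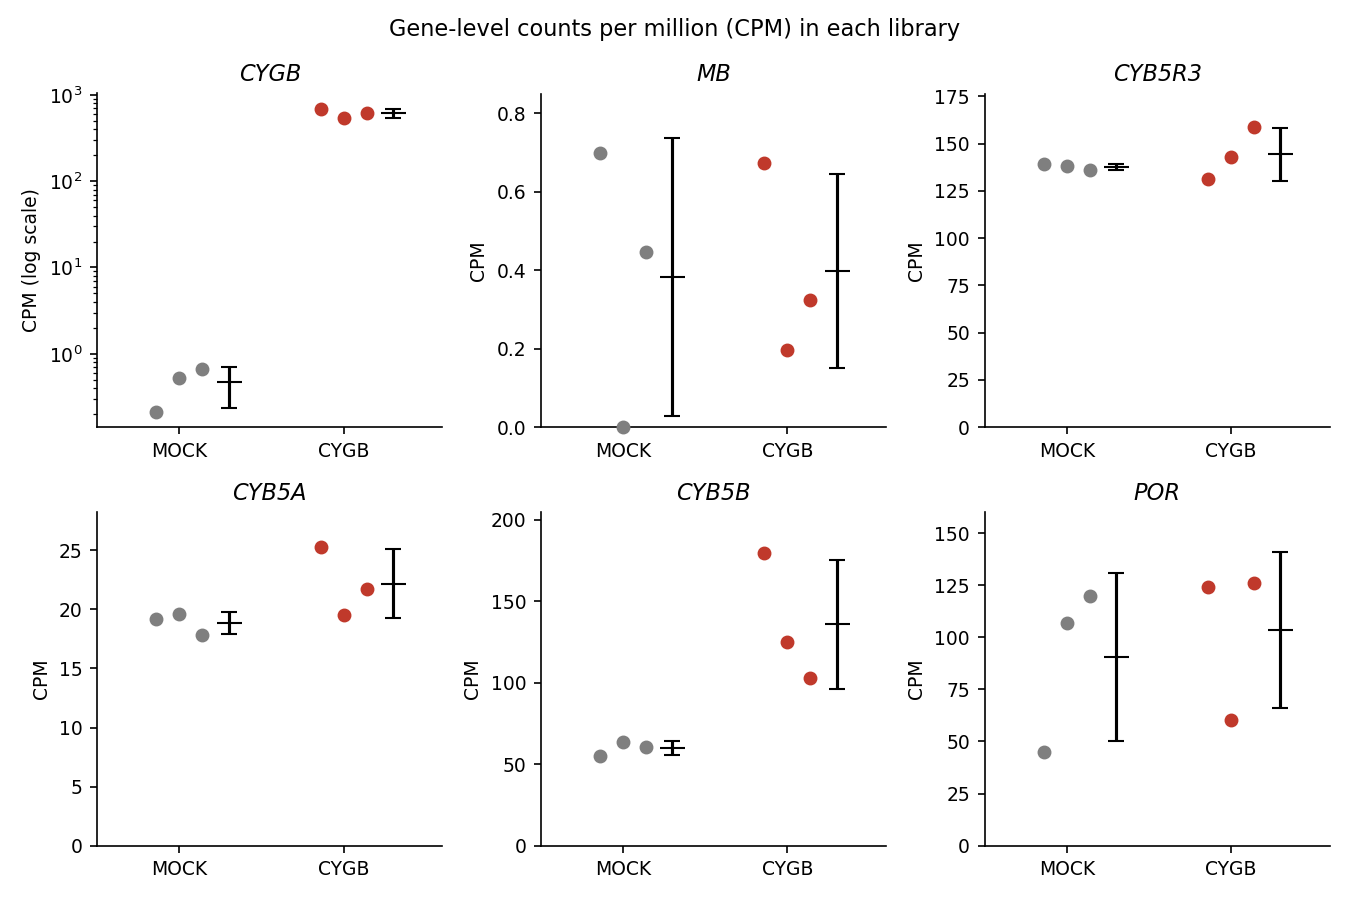
CPM of 6 genes in each library (points; 3 MOCK in grey, 3 CYGB in red) with the mean and SD beside them (black); the CYGB panel has a log axis and the others start at 0. CYGB rose from at most 0.661 to at least 545 CPM, CYB5B lay at 103 to 180 CPM in CYGB above 55.1 to 63.8 CPM in MOCK, and the groups overlapped for MB, CYB5R3, CYB5A and POR.

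Neither of the other globins of the list was present at more than a trace. NGB (ENSG00000165553, chr14:77265483-77271312, minus strand) had 0 counts in all 6 libraries, which allows up to 0.0568 to 0.0635 CPM per library (the limit set by 3 counts, for counting error only). MB (ENSG00000198125, chr22:35606764-35637951, minus strand) gave 33, 0 and 23 counts in MOCK libraries against 34, 10 and 17 in CYGB libraries. These interleaved, at 0.382 ± 0.354 CPM for MOCK and 0.398 ± 0.247 CPM for CYGB (SD, n = 3 each). The difference of 0.07 on the log2 scale had a 95% interval of -2.73 to 2.86 and an adjusted p of 0.999 in edgeR's quasi-likelihood test, so a change of several fold in either direction was not detectable at this depth. Its sign depended on 1 library, at -0.52 when MOCK replicate 2 was left out and -0.54 when CYGB replicate 1 was. The counts were spread over 6 MB transcripts, and MB-201, the one form that passed the filter, had 11, 0 and 0 counts in MOCK and 21, 8 and 11 in CYGB (log2 1.77, SE 1.52, unadjusted p = 0.29 in edgeR's test per transcript). Without MOCK replicate 1, which holds all of its MOCK counts, MB-201 had an unadjusted p of 0.00892 in that test and met the threshold of the methods given above.

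CYB5R3 had the highest mean TPM of the 4 electron carriers in both groups and the smallest relative spread in CPM. The gene (ENSG00000100243, chr22:42617840-42649568, minus strand) had 6574, 7303 and 7001 counts in MOCK and 6642, 7261 and 8371 in CYGB. In CPM the libraries were at 139, 138 and 136 against 131, 143 and 159, and CYGB replicate 1 lay below every MOCK library while replicate 3 lay above them. CYB5R3 differed by a log2 fold change of 0.07 (SE 0.09) with an adjusted p of 0.966 in edgeR's quasi-likelihood test, and its 95% interval in folds ran from 0.901 to 1.22. Without CYGB replicate 3 the log2 value was -0.00386. CYB5R3-201, which encodes the membrane-bound reductase, held 90.6, 91.2 and 88.6% of the gene's counts in MOCK and 93, 89.4 and 89.6% in CYGB (exact permutation p = 0.8, two-sided). The retained-intron form CYB5R3-208 held most of the remainder, 7.63 to 10.4% in MOCK and 5.27 to 9.31% in CYGB.

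CYB5A and CYB5B are paralogues on different chromosomes. Their second coding exons have the same length, 129 bases, and 93 of these are identical (72.1%), with no identical run longer than 12 bases. The exons are shown because the genes gave different results. Capitals mark the bases at which they differ, so a 150-base read over this exon separates the genes.
CYB5A exon 2 (chr18:74263349-74263477, minus strand, GRCh38): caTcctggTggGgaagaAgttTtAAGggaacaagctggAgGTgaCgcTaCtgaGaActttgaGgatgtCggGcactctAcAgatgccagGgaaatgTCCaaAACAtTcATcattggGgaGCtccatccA
CYB5B exon 2 (chr16:69447150-69447278, plus strand, GRCh38): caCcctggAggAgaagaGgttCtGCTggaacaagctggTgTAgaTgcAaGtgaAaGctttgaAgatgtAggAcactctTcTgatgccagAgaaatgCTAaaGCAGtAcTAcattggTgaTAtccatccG

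CYB5B (ENSG00000103018, chr16:69424525-69466266, plus strand) was the only member besides CYGB that met the threshold of the methods, and it was higher in every CYGB library than in any MOCK library. Its counts were 2604, 3373 and 3110 in MOCK and 9076, 6363 and 5389 in CYGB. This was 55.1, 63.8 and 60.4 CPM against 180, 125 and 103 CPM, a tight MOCK group below a wider CYGB group. The log2 fold change was 1.18 (SE 0.21, 95% interval 0.66 to 1.70), or 2.27-fold with an interval of 1.59 to 3.25. In edgeR's quasi-likelihood test the unadjusted p was 0.00134, the 37th smallest of all genes, and the adjusted p was 0.726. The call therefore rests on an unadjusted p and did not pass the correction. The adjusted p of CYB5B was 0.00163 in DESeq2 and 0.00973 in edgeR's exact test, and 0.295 to 0.998 when 1 library was left out. Without CYGB replicate 1, the highest library, the ratio was 1.9 and no longer reached 2.

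In all, 2 of the 6 members tested met the threshold of the methods, CYGB and CYB5B, and both were higher in CYGB cells. The virus delivered CYGB, so its call, direction and separation were built into the design and are no finding about the members. Among the remaining members tested, CYB5B was the only call, and it did not pass the correction. Over all 19987 genes tested, 0.565% met this threshold and 0.28% met it upward. CYGB and CYB5B were also the ones whose groups did not overlap in CPM, against 11% of all genes, and here too only CYB5B was open to the data. Only CYGB, the delivered gene, had an adjusted p under 0.05, as did 0.055% of all genes.

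CYB5A (ENSG00000166347, chr18:74250847-74292016, minus strand) did not meet the threshold. It had 906, 1037 and 914 counts in MOCK and 1277, 992 and 1140 in CYGB, or 19.2, 19.6 and 17.8 CPM against 25.3, 19.5 and 21.7 CPM. CYGB replicates 1 and 3 lay above all MOCK libraries and replicate 2 among them. Between the groups the log2 fold change was 0.23 (SE 0.14, 95% interval -0.10 to 0.57) with an adjusted p of 0.963 in edgeR's quasi-likelihood test. Its sign depended on which transcripts were counted, since CYB5A-202, the main coding form, gave a log2 of -0.05 alone and the sum over protein coding transcripts gave -0.07. CYB5A-202 had 661, 649 and 893 counts in MOCK and 945, 469 and 724 in CYGB. The retained-intron form CYB5A-207 had 226, 364 and 1 counts in MOCK and 318, 495 and 396 in CYGB, so MOCK replicate 3 stood apart in both forms while its gene total did not. These forms are distinct in sequence, with 79.5% of the windows of CYB5A-202 and 91.7% of those of CYB5A-207 in no other transcript of the gene.

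The higher CYB5B total was not carried by 1 form in all 3 CYGB libraries. CYB5B-202, which codes for 438 bases, had 541, 2981 and 2789 reads in MOCK and 8649, 6170 and 1391 in CYGB, so MOCK replicate 1 and CYGB replicate 3 were low for their groups. CYB5B-201, which codes for 450 bases, had 1847, 102 and 84 counts in MOCK and 318, 82 and 1148 in CYGB, and was high in those same libraries. The short form CYB5B-205 had 91, 122 and 82 counts in MOCK and 0, 0 and 2759 in CYGB. The gene total of CYGB replicate 3 thus depended on a form that was listed at 0 in both other CYGB libraries. In edgeR's test per transcript the log2 fold changes were 1.39 (SE 0.87) for CYB5B-202, -0.48 (SE 1.51) for CYB5B-201 and 3.19 (SE 2.83) for CYB5B-205, with unadjusted p-values of 0.162, 0.762 and 0.305. Without CYGB replicate 3, CYB5B-205 was lower in CYGB than in MOCK, with an unadjusted p of 0.000351 in the same test, and met the threshold. No 150-base window of CYB5B-201 is unique to it within the gene, nor are more than 1.7% of those of CYB5B-202, against 21.7% for CYB5B-205. Which of the first pair a read belongs to is therefore hardly given by its sequence, and the part of read assignment in these shares was not tested.

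POR (ENSG00000127948, chr7:75915079-75986855, plus strand) did not meet the threshold and had 1 low library in each group. Its counts were 2114, 5647 and 6173 in MOCK and 6270, 3077 and 6622 in CYGB. In CPM, MOCK replicate 1 (44.8) lay well below MOCK replicates 2 and 3 (107 and 120), and CYGB replicate 2 (60.5) lay below CYGB replicates 1 and 3 (124 and 126). Its log2 fold change was 0.19 (SE 0.44) with an adjusted p of 0.986 in edgeR's quasi-likelihood test, and its 95% interval of -0.88 to 1.26 includes a doubling. It was -0.13 without MOCK replicate 1.

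The low POR total of MOCK replicate 1 went with 1 coding form that was listed at 0 there. POR-218, which codes for 2040 bases, had 0, 3296 and 3658 counts in MOCK and 3114, 1155 and 4235 in CYGB. POR-201, which codes for 1899 bases, had 641, 1814 and 2031 counts in MOCK and 2347, 1356 and 1680 in CYGB, and the retained-intron form POR-222 had 1302, 382 and 371 against 669, 443 and 474. MOCK replicate 1 was thus the lowest library for both coding forms and the highest for POR-222. The log2 fold changes were 0.31 (SE 1.93) for POR-218, 0.27 (SE 0.46) for POR-201 and -0.41 (SE 0.61) for POR-222, with unadjusted p-values of 0.88, 0.575 and 0.524 in edgeR's test per transcript. POR-218 and POR-201 part near the end of the coding region, where POR-201 runs on into a stretch that POR-218 removes as an intron and meets a stop codon there. The sequences on either side show that difference, with the shared bases (chr7:75986212-75986241, plus strand, GRCh38) in lower case and the bases after the parting in capitals.
POR-218 (next exon, chr7:75986337-75986366): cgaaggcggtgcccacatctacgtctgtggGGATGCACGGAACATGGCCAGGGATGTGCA
POR-201 (read through, chr7:75986242-75986261): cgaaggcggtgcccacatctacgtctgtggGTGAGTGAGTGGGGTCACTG
Of 150-base windows, 2.9% in POR-218, 9.3% in POR-201 and 0.8% in POR-222 are found in no other POR transcript.

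**Figure D2:**
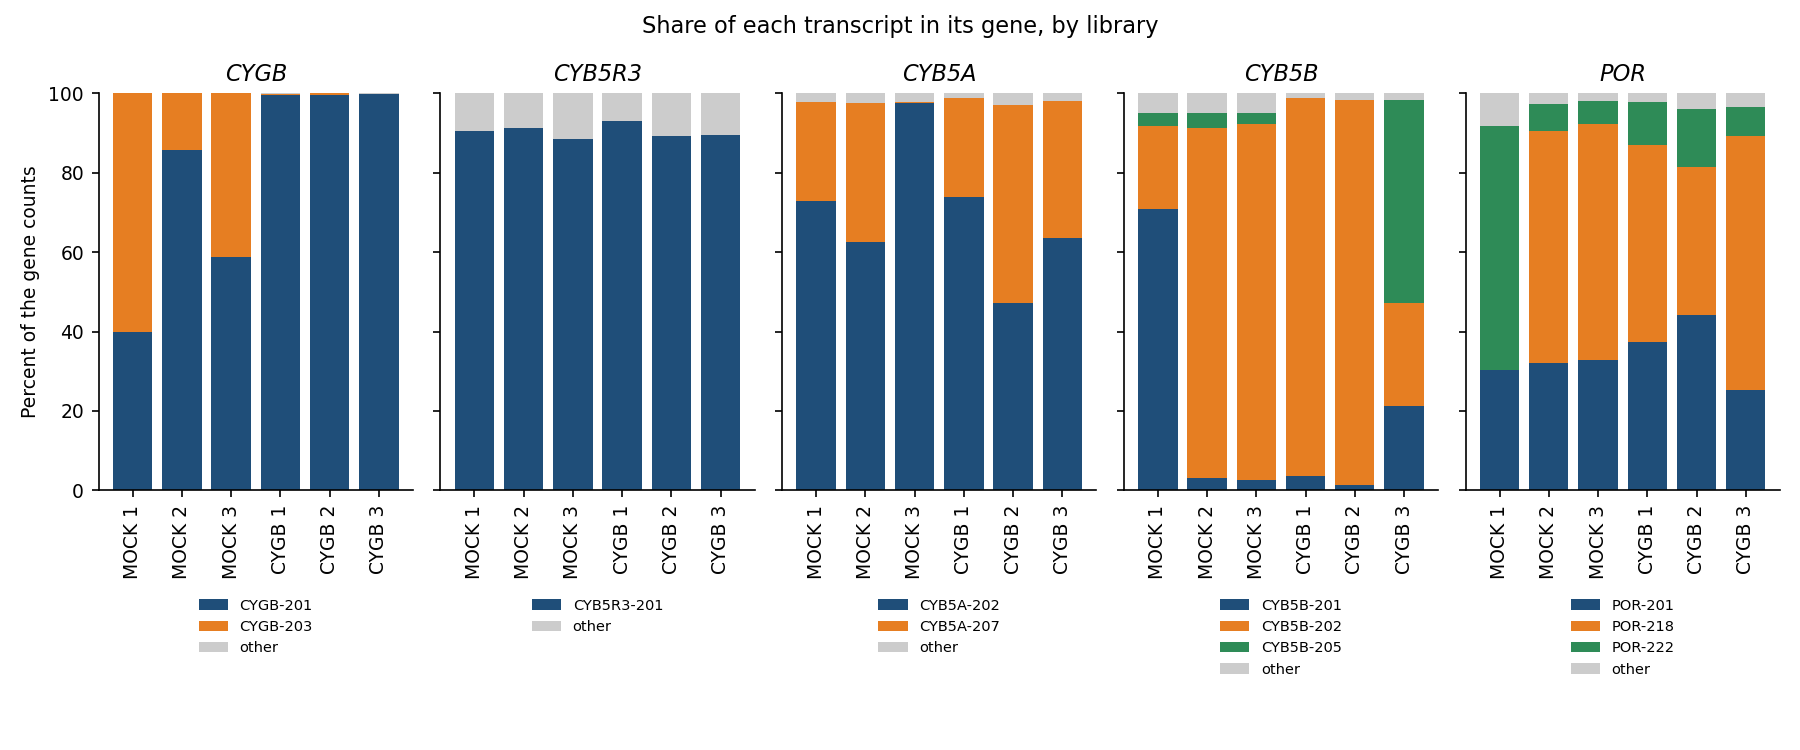
Percent of each gene's counts (vertical axis) assigned to its main transcripts in each library (bars; grey, all other forms). CYB5R3-201 held 88.6 to 93% throughout, whereas CYB5B-202 ranged from 20.8 to 97% and POR-218 from 0 to 64%, with MOCK replicate 1 unlike MOCK replicates 2 and 3 in both genes.

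Over the 49 member transcripts, 25 passed the filter, 19 had counts but did not pass it, and 5 had 0 counts in every library. The 23 that passed and do not belong to CYGB had log2 fold changes of -2.52 to 3.19, and none met the threshold of the methods. Their smallest unadjusted p was 0.118 and no member transcript, those of CYGB included, had an adjusted p under 0.05 in edgeR's quasi-likelihood test, against 2 in DESeq2, 2 in edgeR's exact test and a background of 0.015% of all transcripts. Of the 25, only the 2 CYGB forms did not overlap between the groups. Of the 19, the same held for POR-212, with 0, 0 and 0 counts in MOCK and 18, 2 and 46 in CYGB, and POR-213, with 17, 9 and 16 against 3, 0 and 4. These 2 of 19 are close to the 10.4% among all tested transcripts, a set that leaves out transcripts with such low counts. Both are shown after their values were seen, and without CYGB replicate 2 POR-212 passed the filter and met the threshold (unadjusted p of 0.00961 in edgeR's test). Shares of the most abundant form did not separate the groups for CYB5R3, CYB5A, CYB5B and POR, with two-sided exact permutation p-values of 0.5 to 0.8 before and 0.8 after adjustment.

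Levels of the members can be set against each other only per transcript length, as TPM. In MOCK cells the order was CYB5R3 (120 ± 1.38 TPM), POR (89.3 ± 18.8), CYB5B (36.4 ± 1.83), CYB5A (10.6 ± 0.382), MB (0.778 ± 0.685), CYGB (0.667 ± 0.328) and NGB at 0 (SD, n = 3 each). Neighbours from CYB5R3 to CYB5A did not overlap over the libraries, and MB and CYGB did. In MOCK replicate 1 the 68.3 TPM of POR rested largely on the retained-intron form POR-222, with 1302 counts on 1028 bases. There POR-201 had 641 counts on 2532 bases and POR-218 had 0. The place of POR above CYB5B (34.6 TPM) in that library was thus not carried by its coding forms. In CYGB cells CYGB stood first with 564 ± 62.8 TPM, followed by CYB5R3 (129 ± 9.18), CYB5B (99.5 ± 43.5), POR (96.7 ± 29.8), CYB5A (11.7 ± 1.95) and MB (0.759 ± 0.445), again with NGB at 0 (SD, n = 3 each). There CYB5R3, CYB5B and POR formed a middle group, in which CYB5B overlapped both others and POR stayed below CYB5R3. CYB5B had 86.8, 63.7 and 148 TPM in CYGB replicates 1 to 3, so replicate 3, the lowest by CPM, was the highest per length with most of its counts in the short form CYB5B-205.

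Per transcript length, RNA of CYGB lay below that of the electron carriers CYB5R3 and POR in MOCK cells and above it in transduced cells. These are ratios of RNA and not of protein, and CYGB levels rest on annotated lengths that the viral RNA need not have. As far as counts came from the virus, the ratios of CYGB in CYGB cells are understated. CYGB per CYB5R3, as a ratio of TPM, was 0.00317, 0.00487 and 0.00859 in MOCK and 5.31, 3.94 and 3.98 in CYGB. CYGB per POR averaged 0.00721 ± 0.00227 in MOCK and 6.19 ± 1.77 in CYGB (SD, n = 3 each). In MOCK replicate 1 the POR level behind that ratio rested largely on the retained-intron form POR-222. Among the carriers, CYB5B per CYB5A was 3.35, 3.64 and 3.3 in MOCK and 6.3, 6.41 and 13.1 in CYGB. The mitochondrial form thus exceeded the microsomal form in all 6 libraries and by more in each CYGB library. The difference had p = 0.1 in a two-sided exact permutation test, the smallest value that 3 against 3 libraries allow. The 13.1 of CYGB replicate 3 rests largely on counts assigned to the short form CYB5B-205.

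**Figure D3:**
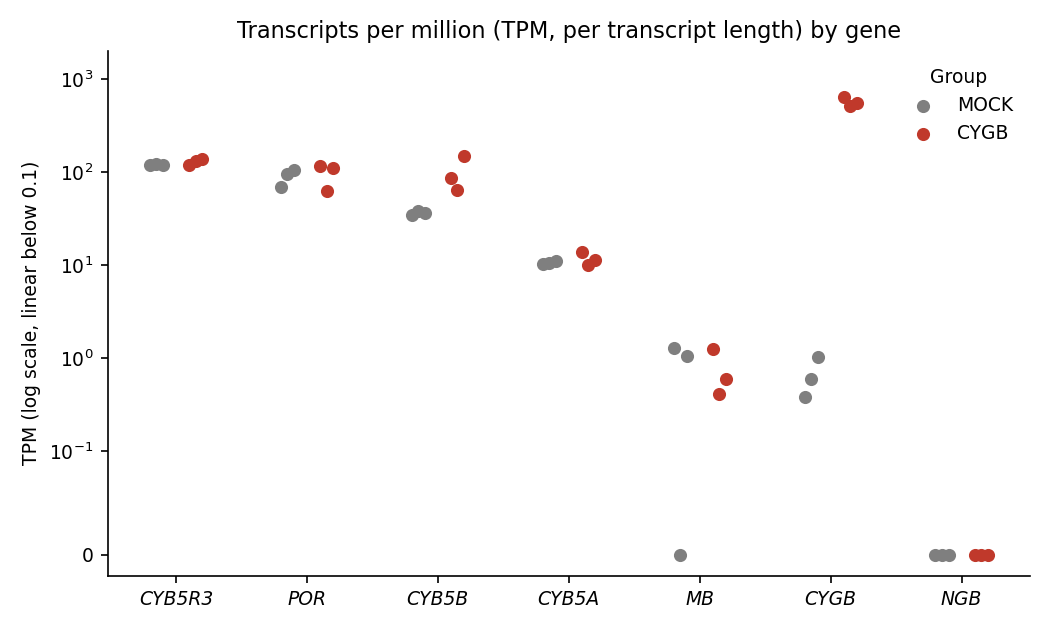
TPM of the 7 genes in each library (points; MOCK in grey, CYGB in red) on a log axis that is linear below 0.1 and reaches 0. CYGB moved from 0.38 to 1.03 TPM in MOCK to 512 to 634 TPM in CYGB, while CYB5R3 stayed between 119 and 138 TPM and NGB at 0.

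The related genes were described from 4 lists of the same biochemistry, in which 40 of 49 listed genes were tested and 1 met the threshold of the methods. Over all genes tested 0.565% met it, so 0 calls in lists this short carry little information. The median log2 fold change over these 40 was -0.07, beside -0.01 over all genes tested. Of the other globins, 8 of 11 listed symbols were in the table and 4 were tested, with 0 calls and log2 fold changes of -0.20 to 0.27. HBE1, the embryonic beta-like chain, was the highest of them by CPM but shares most of its listed span with HBG2 on the same strand, with 334, 629 and 466 counts in MOCK and 371, 439 and 438 in CYGB. HBA1 and HBA2 encode the same alpha chain and are near-identical copies, so their split is uncertain, with 101 to 186 and 103 to 106 counts in MOCK and 133 to 209 and 68 to 141 counts in CYGB. HBB, the adult beta chain, did not pass the filter on low counts, with 0, 0 and 0 counts in MOCK and 2, 11 and 10 in CYGB. It was the 1 gene of these 8 whose groups did not overlap, beside 11% of all genes tested, a set without HBB.

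All 14 relatives of cytochrome b5 and its reductase were tested, with 0 calls, log2 fold changes of -0.43 to 0.37 and a median of -0.07. PGRMC1, a heme-binding membrane protein that interacts with cytochromes P450, was at 196 ± 24.4 CPM in MOCK and 187 ± 22.1 CPM in CYGB (SD, n = 3 each). FADS1, a fatty acid desaturase with a built-in cytochrome b5 domain, was at 105 ± 5.64 and 100 ± 2.48 CPM. PGRMC2 had 4942, 5195 and 4790 counts in MOCK and 5238, 1263 and 4781 in CYGB, so CYGB replicate 2 stood apart. Of the diflavin proteins, which share the domain plan of POR, 4 of 6 were tested with 0 calls and a median of 0.18. NOS3, the endothelial nitric oxide synthase, was at 25.1 ± 2.22 and 28.5 ± 1.76 CPM, TYW1, which modifies transfer RNA, at 26.1 ± 1.23 and 25.7 ± 2.57 CPM, and MTRR, which reactivates methionine synthase, at 23.0 ± 3.37 and 28.2 ± 1.55 CPM (MOCK and CYGB, SD, n = 3 each).

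Among 18 enzymes that accept electrons from POR or cytochrome b5, all of them tested, 1 met the threshold upward and 0 downward. Their median log2 fold change was -0.17, and 0.28% of all genes tested met the threshold upward. The enzyme that met it was CYP26B1, a cytochrome P450 that clears retinoic acid. It had 104, 81 and 119 counts in MOCK and 2137, 131 and 2226 in CYGB. CYGB replicates 1 and 3 were far above MOCK and replicate 2 was barely above it. Per transcript length the gap was smaller, at 6.38, 4.39 and 7.49 TPM in MOCK against 21.3, 8.19 and 23.7 TPM in CYGB. The part of read assignment among its forms was not tested. The log2 fold change was 3.85 (SE 1.00) with an unadjusted p of 0.00811 and an adjusted p of 0.963 in edgeR's quasi-likelihood test. The adjusted p was 0.00188 in DESeq2 and 0.0391 in edgeR's exact test. Without CYGB replicate 2 it was 0.0149 in the quasi-likelihood test, and without any 1 of the other 5 libraries the unadjusted p was 0.0242 to 0.0307 and the call was lost. SCD, the stearoyl-CoA desaturase that draws on cytochrome b5, was the most abundant of the list, with 1683 ± 73.1 CPM in MOCK and 1493 ± 46.3 CPM in CYGB (SD, n = 3 each) and a log2 fold change of -0.17, an unadjusted p of 0.0295 and an adjusted p of 0.963 in edgeR's test. CYP51A1 and MSMO1, both of sterol synthesis, were at 143 ± 3.61 and 107 ± 3.51 CPM in MOCK and at 139 ± 18.0 and 93.2 ± 13.5 CPM in CYGB (SD, n = 3 each).

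**Figure D4:**
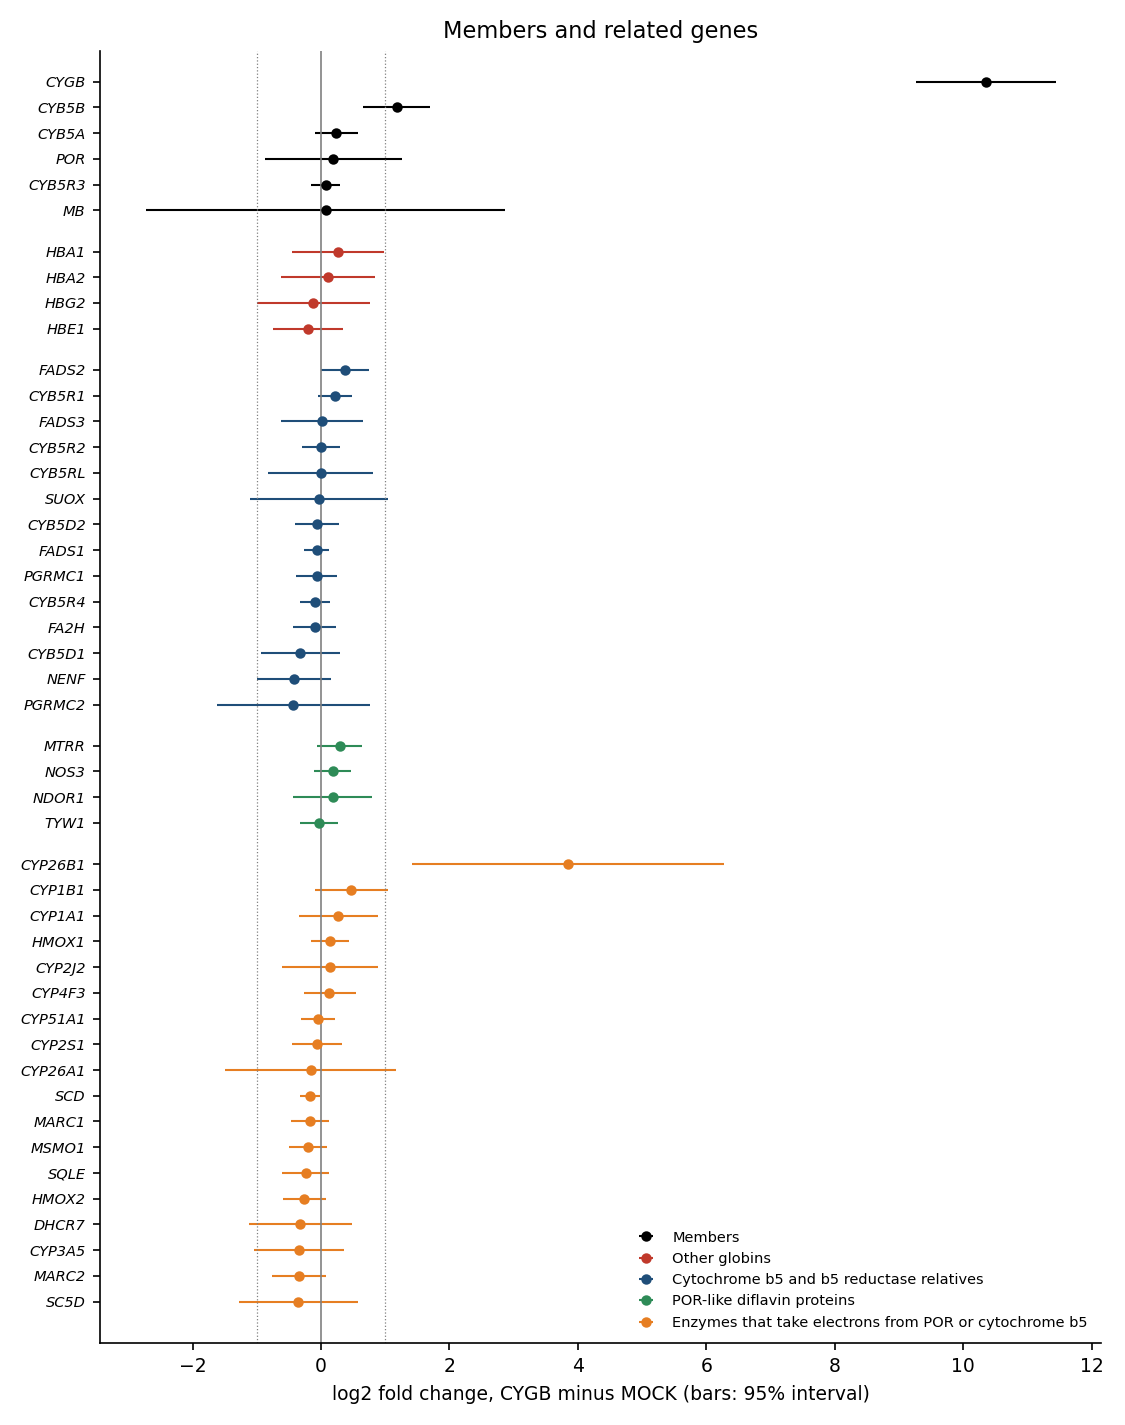
Log2 fold change, CYGB minus MOCK, of the 6 tested members and 40 related genes (points, coloured by list) with 95% intervals from edgeR (bars); dotted lines mark ratios of 2 and 0.5. CYGB (10.35), CYB5B (1.18) and CYP26B1 (3.85) are the genes that met the threshold of the methods.

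The genes around native CYGB were read for the same libraries, since the virus carries only the coding region. Within 100 kb of CYGB the table lists 14 other genes, of which 10 were tested. Their log2 fold changes were -0.22 to 1.15, and 0 met the threshold, beside 0.565% of all genes tested. PRCD, on the opposite strand across nearly all of CYGB, had 36, 21 and 26 counts in MOCK and 20, 25 and 34 in CYGB, and AC015802.4, on the same strand, had 26, 25 and 33 against 27, 15 and 36. The opposite-strand AC015802.3 had at most 8 counts in any library. None of these overlapping genes carried counts on the scale of CYGB in the CYGB libraries, though without a stated strand setting reads of opposite-strand partners cannot be told apart. The highest-expressed neighbours were SNHG16, UBE2O and RHBDF2. SNHG16, a long noncoding RNA that starts 6.6 kb upstream of CYGB on the other strand, had 950, 1833 and 3591 counts in MOCK and 4741, 4964 and 4469 in CYGB. Its groups did not overlap in CPM, as was the case for 11% of all genes tested, and the MOCK libraries were widely spread. The log2 fold change of SNHG16, 1.15 (SE 0.43), had an unadjusted p of 0.0367 and an adjusted p of 0.963 in edgeR's quasi-likelihood test. Without MOCK replicate 3 its log2 fold change was 1.75 with an unadjusted p of 0.000996, and it then met the threshold. UBE2O, a ubiquitin-conjugating enzyme, had 1493, 1757 and 1251 counts in MOCK and 1045, 4575 and 1010 in CYGB, high in 1 library, and RHBDF2 was at 19.5 ± 9.76 CPM in MOCK and 16.7 ± 6.46 CPM in CYGB (SD, n = 3 each).

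**Figure D5:**
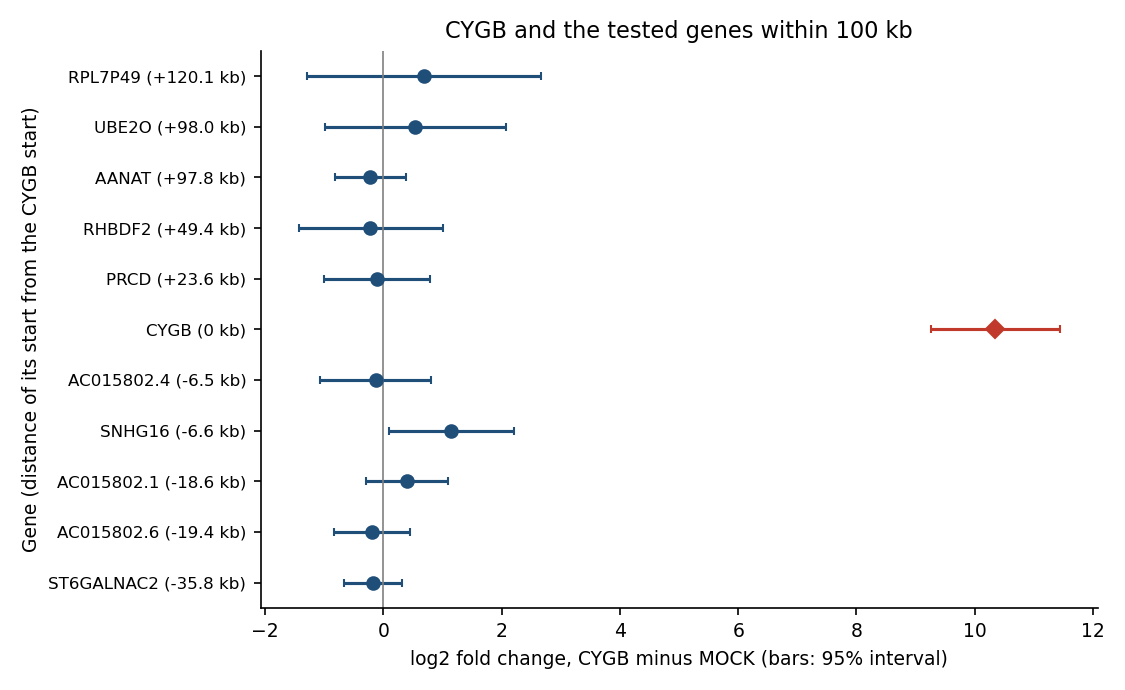
Log2 fold change, CYGB minus MOCK, with 95% intervals from edgeR (bars) for CYGB and the 10 tested genes within 100 kb, ordered by the distance of each gene's start from the CYGB start (negative, upstream). CYGB is at 10.35 and the other genes are between -0.22 and 1.15.

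Genes that overlap the other members were low or short of shared sequence. The 7 such genes included AC026464.2 and AC026464.5 at CYB5B with 14 to 18 and 12 to 27 counts per library, and TMEM120A at POR with 442 to 609 counts, which shares 19 bases with it. The window of 200 kb around CYB5B, chosen after the CYB5B values were seen, held 13 tested genes. Of these, 0 met the threshold, beside 0.565% of all genes tested, and 0 had an unadjusted p under 0.05 in edgeR's test.

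Among the 5 genes whose log2 CPM followed CYGB most closely over the 6 libraries, of 10151 compared, were COCH (Pearson r 0.991), MTUS1 (0.989) and CCDC71 (0.985). These libraries form 2 clusters, MOCK and CYGB, and any gene with separate groups and a small spread within them scores high. COCH, an extracellular matrix protein of the inner ear, had 617, 706 and 732 counts in MOCK and 922, 919 and 924 in CYGB, so a difference of 1.33-fold gave the first place. Of these 3 only MTUS1, a microtubule-associated protein, differed by more than 2-fold, from 9.89 ± 1.49 CPM in MOCK to 168 ± 2.75 CPM in CYGB (SD, n = 3 each).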

How the data were processed

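The authors deposited raw paired-end read counts per transcript, without normalization, for 3 MOCK and 3 CYGB libraries. The submitters' processing notes name HISAT2, HISAT, DESeq2 and hg19. The division of reads among isoforms and the use of strand are not given in the sources used here. Table positions match GENCODE 29 on GRCh38 for 99.5% of transcripts, members included, so that build was used.

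Counts were summed per gene, filtered with filterByExpr (minimum count 10), scaled by TMM and fitted over all genes or transcripts with edgeR 4.0.16 (glmQLFTest, R 4.3.3, Benjamini-Hochberg adjustment, no block). TPM used GENCODE lengths. Alternatives were DESeq2 1.42.0, its size factors, edgeR's exact test, other filters, a replicate block, each library left out, single transcripts, library sizes with all transcripts, and protein coding transcripts (chosen after seeing the data). The steps were tested on simulated data. Library pairs differed beyond sampling noise (chi-square per gene at least 95.3).

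The members and lists were chosen with earlier results of these data known. Named genes were the members, genes overlapping CYGB, called genes, the 3 highest by CPM in each list and the 5 most like CYGB, of which 2 are not reported here. HBB, single markers, genes overlapping CYB5B and POR, and the CYB5B window were added after values were seen. Figures were drawn with matplotlib 3.10.9.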

Additional observations from a re-analysis of the deposited data

How the results depend on the processing

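The direction of CYGB and CYB5B held in every alternative run. CYGB was 10.40 on the log2 scale with the replicate block (adjusted p 0.17) and 10.95 for its most abundant transcript alone (adjusted p 0.066), and 10.01 to 10.68 with 1 library left out. CYB5B was 1.19 in DESeq2 and 1.18 in edgeR's exact test, where its adjusted p fell under 0.05, and 0.93 to 1.35 with 1 library left out. CYB5A turned to -0.05 for its most abundant transcript and -0.07 for protein coding transcripts (0.13 to 0.31 with 1 library left out). With 1 library left out, CYB5R3 ranged from -0.00386 to 0.13, MB from -0.54 to 0.83 and POR from -0.13 to 0.46, on either side of 0. MB could not be fitted where a mean of 50 counts was required, and NGB had no fit.

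Member genes called were 2, the delivered CYGB included, and 1 to 2 with 1 library left out. Members with an adjusted p under 0.05 were 1, against 2 in DESeq2, 2 in edgeR's exact test and 0 with the replicate block. Member transcripts called were 2, against 1 where a mean of 50 counts was required, which leaves CYGB-203 untested, and 1 with the replicate block, and 2 to 3 with 1 library left out. With an adjusted p under 0.05 they were 0, against 2 in DESeq2, 2 in edgeR's exact test and 0 to 1 with 1 library left out. Related genes called were 1, against 0 with the replicate block, 0 with protein coding transcripts only and 0 to 1 with 1 library left out. Genes called at the CYGB locus were 0, and 0 to 1 with 1 library left out.

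Over all genes the calls numbered 113, against 263 in DESeq2, 256 in edgeR's exact test, 62 where a mean of 50 counts was required and 124 to 177 with 1 library left out. Over all transcripts they numbered 681, against 1506, 1103, 319 and 961 to 1209 in the same order, and 291 with the replicate block. The labels state no pairing by replicate number. Deviations of same-numbered libraries correlated at 0.0159, 0.00487 and 0.0253, so they shared little variation, which does not tell whether the libraries were prepared in pairs. What lies behind these changes was not tested. With a biological coefficient of variation of 36.6% for genes and 78.9% for transcripts, 3 libraries a group leave wide intervals for single forms.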
